A study of Caenorhabditis elegans with 80 samples.

Results

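Of the 80 two-colour arrays of this series, 40 were hybridised with RNA of worms raised at 24 °C, and 20 of these are described here. They are the 10 arrays with the highest and the 10 with the lowest mean log ratio of the furrow collagens dpy-2, dpy-3, dpy-7, dpy-8, dpy-9 and dpy-10, called the furrow score. Each array set RNA of a recombinant inbred (RI) strain labelled with Cy3 against RNA of another labelled with Cy5. The strains descend from a cross of the Bristol strain N2 with the Hawaiian strain CB4856, and the 2 strains of an array were paired to differ as much as possible in genotype. All 20 arrays carry hermaphrodite worms at the L3 larval stage, grown on OP50 bacteria for 40 h at 24 °C. The 40 arrays at 16 °C carry L3 worms of 72 h and serve as arrays that the choice did not use. A log ratio compares the 2 strains of an array and holds no expression level, so that the labelled stage cannot be checked from markers. The dye in the numerator is not stated, and the base of the log was read as 2, so that a strain pair with a positive furrow score had more furrow collagen RNA in one strain, which cannot be named. If the ratio ran the other way, the high and the low arrays would exchange places and every difference between them would stay the same.

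Nematodes build a new cuticle before each molt, and the epidermis transcribes the collagens of that cuticle in waves within each larval stage. The furrow collagens form the circumferential furrows of the cuticle, and loss of any of them gives short, dumpy worms. Before the collagens are laid down, the epidermis secretes a temporary apical matrix of zona pellucida proteins, lipocalins and other glycoproteins, and at the end of the stage proteases and their inhibitors take part in shedding the old cuticle. In a population of worms, RNA of these genes therefore depends on the phase of the molting cycle at harvest. The comparison asked which other genes differed between strain pairs at the ends of the furrow score. An array reads whole worms, so that fewer cells of a type and less RNA per cell cannot be told apart.

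The furrow score of the high arrays ran between 0.62 and 1.33, with a median of 0.98, and that of the low arrays between -2.87 and -0.63, with a median of -0.74. The mean was 1.02 ± 0.24 in the high arrays and -1.10 ± 0.73 in the low arrays (SD, n = 10 each), a difference of 2.12 on the log2 scale. These values chose the arrays and are given as a description. At the edges of the choice, WN54/WN6 (Cy3 strain first) entered the high arrays with 0.62 and WN3/WN22 stayed outside with 0.60. WN67/WN26 entered the low arrays with -0.63 and WN42/WN11 stayed outside with -0.55. The low arrays were less even than the high ones. WN65/WN30 had -2.87 and WN36/WN72 had -1.84, while 7 of the others lay between -0.91 and -0.63.

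Of the 6 furrow collagens, 5 had a probe with their name, 1 probe each, and no probe with the name dpy-10 was used here. dpy-2, dpy-7, dpy-8 and dpy-9 were above 0 in all 10 high arrays. dpy-7 and dpy-8 did not overlap between the groups. Only dpy-8 was below 0 in all 10 low arrays, where dpy-7 was below 0 in 9, dpy-2 in 8 and dpy-9 in 6. dpy-2 ran between 0.24 and 1.61 in the high arrays and between -3.26 and 0.35 in the low arrays. dpy-3 departed from the other genes. It was -1.34 in the high array WN54/WN6, where dpy-8 and dpy-2 were both 1.53. It was -3.70 in WN71/WN79 and -3.23 in WN46/WN69, and these arrays came among the low ones through it, since their ratios of the other genes lay between -0.46 and 0.35. Across the 40 arrays at 24 °C the ratios of dpy-3 had a Pearson r of 0.34 to 0.49 with the other furrow collagens, which had 0.74 to 0.85 among themselves. Across the 40 arrays at 16 °C these values were 0.16 to 0.36 and 0.46 to 0.69. The probes of an array share its hybridisation, and the correlations are descriptions. When each gene was left out of the score, the other genes chose 17 to 19 of the same 20 arrays again. The arrays chosen without a gene still differed in it, on the same hybridisations, which is a description as well. The difference was 1.67 for dpy-3, 1.77 for dpy-9, 1.84 for dpy-7, 1.86 for dpy-2 and 1.88 for dpy-8.

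**Figure D1:**
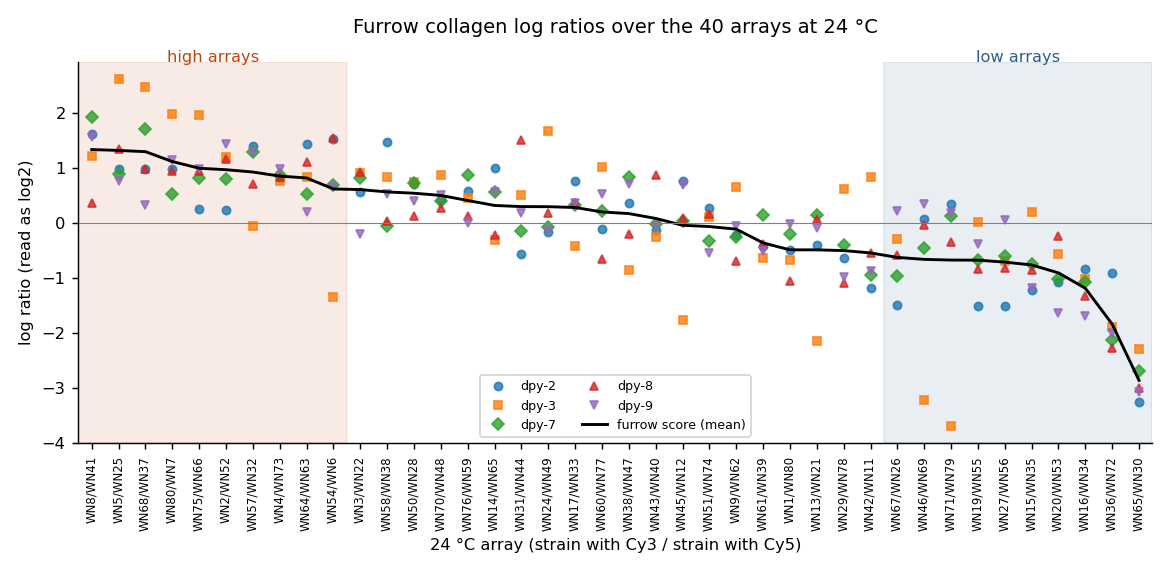
Log ratios of the 5 measured furrow collagens (points) and their mean, the furrow score (line), on the vertical axis for the 40 arrays at 24 °C, ordered by the score on the horizontal axis, with the 10 high arrays shaded on the left and the 10 low arrays on the right. dpy-3 leaves the other genes in several arrays, down to -3.70 in WN71/WN79, and the line falls steeply over the last arrays to -2.87 in WN65/WN30.

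Over the other 23227 probes, the median difference between the high and the low arrays was 0.03. The mean was higher by at least 1 in the high arrays for 1509 probes, 6.5% of all, and lower by at least 1 for 1309, 5.64%. Which side held more probes depended on the setting, and among probes with 1 gene name 968 were higher and 1096 lower. Since the arrays were chosen on the same hybridisations, these differences are descriptions with no test. A log ratio did not overlap between the groups for 9 probes that were higher in the high arrays (0.0387% of all) and for 4 that were lower (0.0172%), and 11 of these 13 carry a gene name. The differences stood on a similar spread of the arrays, whose SD over probes ran between 1.26 and 1.45 in the high arrays and between 1.16 and 1.41 in the low arrays.

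The 7 named genes that did not overlap and were higher in the high arrays were noah-2, wrt-2, lpr-6, idpp-1, F49E11.2, F15H10.8 and uggt-1. noah-2, which encodes a zona pellucida protein of the apical matrix, had a lowest, median and highest log ratio of 0.16, 0.78 and 1.94 in the high arrays and of -4.49, -0.99 and 0.05 in the low arrays, a difference of 2.42. The secreted hedgehog-related protein gene wrt-2 had 0.11, 1.00 and 2.49 in the high arrays and -2.84, -0.57 and -0.14 in the low arrays, a difference of 1.97. lpr-6, of the lipocalin-related genes, had 0.10, 1.07 and 2.22 in the high arrays and -2.15, -0.64 and -0.19 in the low arrays, a difference of 1.92. For these 3 genes the lowest high array thus lay above the highest low array. idpp-1 differed by 2.50, with 0.38, 1.25 and 2.45 in the high arrays and -2.50, -1.21 and -0.11 in the low arrays. F49E11.2 differed by 2.0, F15H10.8 by 1.92 and uggt-1 by 0.91, and uggt-1 encodes a glucosyltransferase of glycoprotein folding in the endoplasmic reticulum. At 16 °C the strain pairs of the high arrays also had larger F49E11.2 ratios, by 1.63 ± 0.57 (SE). This did not pass the limma test of all probes (adjusted p = 0.996). For the other genes of this paragraph the pairs differed by 0.01 to 0.13 at 16 °C.

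Larger differences came with wide spread within the groups. R07C12.2 differed by 5.07, but its log ratio ran between -3.34 and 6.08 in the high arrays and between -8.58 and -0.41 in the low arrays. The C-type lectin gene clec-72 differed by 4.45 and wdr-5.2 by 4.18, and for wdr-5.2 the single high array WN75/WN66 had 9.66, against 2.55 in the next high array. The strain pairs of the high arrays also had the larger ratios at 16 °C, by 4.95 for clec-72, 2.01 for R07C12.2 and 1.40 for wdr-5.2. None of these passed the limma test of all probes (adjusted p = 0.996 each). These genes overlapped between the groups.

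The genes with a role in molting were the list with the largest share of higher genes among the lists examined. Of 19 molting proteases, inhibitors and other ecdysis genes with a probe, 9 (47.4%) were higher by at least 1 and none was lower by as much, against 5.6% higher and 6.31% lower among all 16362 genes. The median of the list was 0.89, that of all genes -0.01. mlt-11, a protease inhibitor gene required for molting, had a lowest, median and highest log ratio of 0.57, 0.95 and 1.62 in the high arrays and of -4.33, -1.11 and 0.70 in the low arrays, a difference of 2.37. sym-1, which encodes a secreted leucine-rich repeat protein of the apical surface, differed by 2.03, with -0.10 to 1.45 in the high arrays and -3.82 to 0.22 in the low arrays. mlt-8 differed by 2.10 and the lipocalin-related gene lpr-3 by 1.69. Each of these 4 genes lay above 0 on average in the high arrays and below 0 in the low arrays, and each overlapped between the groups.

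Of 36 zona pellucida and apical matrix genes, 9 (25%) were higher by at least 1 and 1 was lower, with a median of 0.59. let-653, whose product lines narrow epithelial tubes and the vulval lumen, had the largest difference of the list at 2.44. It had -0.19, 1.07 and 2.32 in the high arrays and -4.14, -1.68 and 1.69 in the low arrays, so that 1 low array lay above the median of the high ones. fbn-1, a fibrillin-related gene, differed by 1.81 and the cuticlin gene cut-2 by 1.76. Of 55 hedgehog-related genes, 7 (12.7%) were higher by at least 1 and 1 (1.82%) was lower, with a median of 0.34. Over all genes these shares were 5.6% and 6.31%. Beside wrt-2, wrt-10 differed by 1.93 and qua-1, which is required for molting, by 1.5. Of 28 patched-related genes, whose family includes sterol-sensing membrane proteins that molting needs, 5 (17.9%) were higher and none lower by at least 1, with a median of 0.40. ptr-10 had the largest difference of this list, 1.51.

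**Figure D2:**
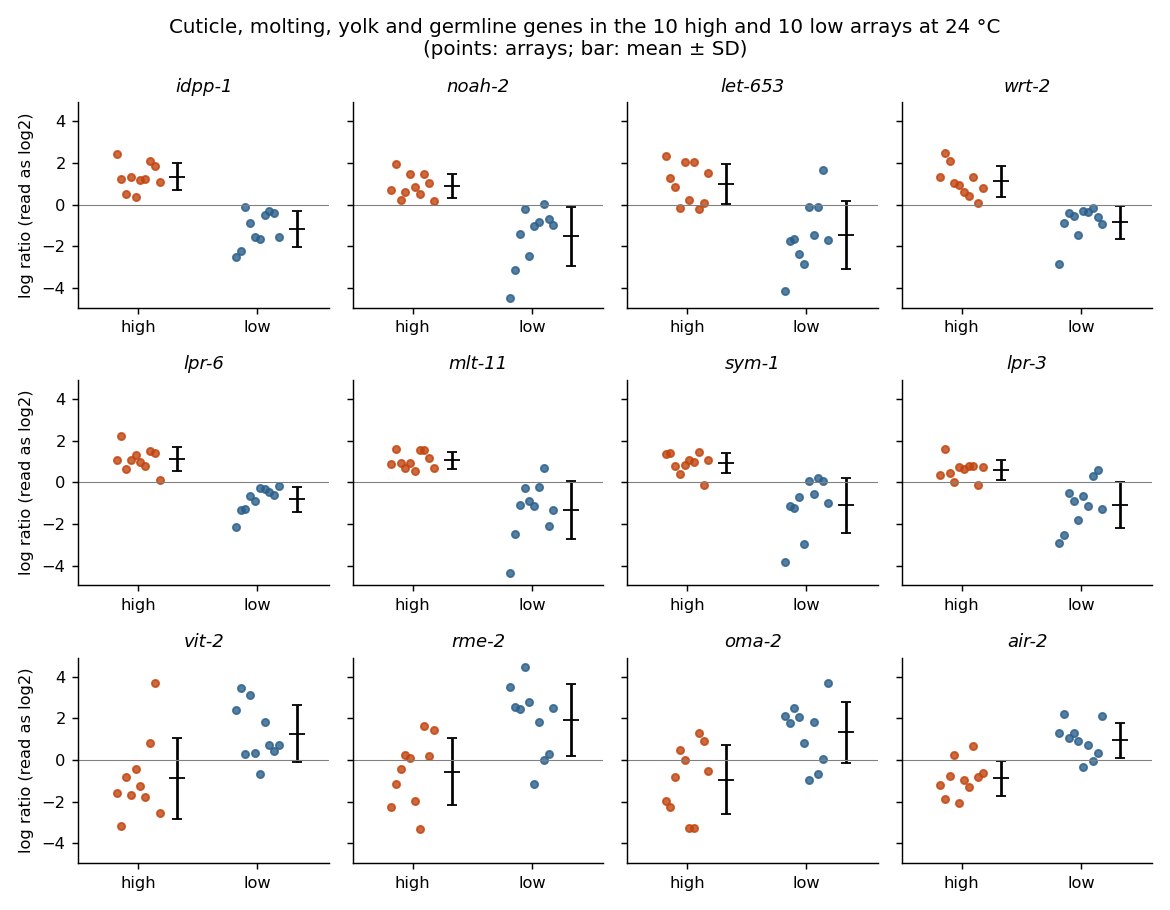
Log ratio (vertical axis, read as log2) of 8 cuticle and molting genes and of 4 yolk, germline and cell cycle genes in the 10 high arrays (left in each panel) and the 10 low arrays (right), with the mean ± SD. The points of idpp-1, noah-2, wrt-2 and lpr-6 do not overlap between the groups, and vit-2, rme-2, oma-2 and air-2 lie lower in the high arrays, with overlap.

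Collagens outside the furrow group were less uniform. All 15 measured collagens of other body-shape genes were higher on average in the high arrays, by 0.21 to 2.03 with a median of 0.86, and 5 of them by at least 1. bli-1, a collagen of the struts of the adult cuticle, had a lowest, median and highest log ratio of -0.03, 0.62 and 2.32 in the high arrays and of -3.57, -1.37 and 0.65 in the low arrays. dpy-17 differed by 1.16, dpy-4 by 1.09 and bli-6 by 1.08, with high arrays both above and below 0 for each. Of the 138 collagens named col, 22 (15.9%) were higher and 11 (7.97%) lower by at least 1, and the median was 0.18. Over all genes these shares were 5.6% and 6.31%. col-183 was higher by 2.06 and col-9 by 1.91, whereas col-143 was lower by 2.85. Of 11 genes of collagen processing and crosslinking, 1 (9.09%) passed a difference of 1. This was phy-2, a prolyl 4-hydroxylase subunit gene, which differed by 1.2, with 0.34 to 2.68 in the high arrays and -0.92 to 1.21 in the low arrays. All 3 probes of bli-3, the dual oxidase that crosslinks cuticle proteins, were higher, by 0.56 to 1.23.

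The regulators of molting and developmental timing had smaller differences. Of 21 genes listed, 13 had a probe, and 2 of these (15.4%) were higher by at least 1, against 5.6% of all genes. myrf-1, a membrane-bound transcription factor gene needed for larval progression, differed by 1.29 and ran between -1.24 and 1.27 in the high arrays and between -2.49 and -0.04 in the low arrays. lin-42, the homolog of the clock gene period, differed by 1.14, and lin-29, a zinc finger gene of the transition to the adult epidermis, by 0.79. The differences of nhr-67, lin-46, elt-1, nhr-25, hbl-1, elt-3, bed-3, blmp-1, nhr-41 and grh-1 lay between -0.39 and 0.74, and the other probe of blmp-1 had the opposite sign. Of 56 abu and pqn genes, many of them expressed in the pharyngeal cuticle, 8 (14.3%) were higher and 2 lower by at least 1, with a median of 0.12. Of 16 epidermal antimicrobial peptide genes, 1 (6.25%) was higher, close to the share of all genes, and of 15 genes of lethargus and sleep none passed a difference of 1.

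Among the lists examined, those of yolk proteins, germline, sperm and cell division genes had medians of -0.42 or below, and they hold 23 of the 1032 genes that were lower by at least 1. All 6 vitellogenins, the yolk proteins made in the adult intestine, were lower on average in the high arrays, by 1.29 to 2.14 with a median of -1.53. vit-2 had a lowest, median and highest log ratio of -3.19, -1.41 and 3.68 in the high arrays and of -0.66, 0.71 and 3.46 in the low arrays, so that the groups overlapped. In the high array WN64/WN63, vit-3 had 5.50, vit-4 had 4.34, vit-5 had 3.58 and vit-6 had 3.81, far above the other high arrays. Without that array the differences of the 6 genes lay between -2.65 and -1.73. vit-3, vit-4 and vit-5 are close copies whose probes may read each other, and 1 of the 4 probes of vit-4 had the opposite sign, 0.55.

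Among 14 germline genes, 3 (21.4%) were lower by at least 1 and none was higher, with a median of -0.42. Over all genes 6.31% were lower and 5.6% higher by at least 1. The yolk receptor gene of oocytes, rme-2, was lower by 2.48, with -3.34, -0.18 and 1.64 in the high arrays and -1.13, 2.45 and 4.47 in the low arrays. oma-2, of oocyte maturation, was lower by 2.26 and the helicase gene glh-2, of the germ granules, by 1.5. Of 17 cell cycle and DNA replication genes, 4 (23.5%) were lower and none was higher by at least 1, with a median of -0.62. air-2, the Aurora B kinase gene, had -2.06, -0.90 and 0.65 in the high arrays and -0.36, 0.98 and 2.20 in the low arrays. rnr-2, a ribonucleotide reductase subunit gene, was lower by 1.46 and mcm-2, of the replicative helicase, by 1.14. pold-2, a subunit gene of DNA polymerase delta, was lower by 1.19 with no overlap, and zyg-11, a substrate adaptor gene of a ubiquitin ligase, by 1.55 with no overlap. The other named genes that were lower without overlap were F57A10.4 (-1.9) and F48C1.5 (-1.89). Of 58 sperm genes, 10 (17.2%) were lower and none was higher by at least 1, with a median of -0.47. ssp-37 was lower by 1.66 and ssp-33 by 1.64. The core and linker histones did not share the sign of the cell cycle list, since 23 of 32 were above 0, with a median of 0.24. Of these 32 genes, 2 (6.25%) were higher and 1 (3.1%) was lower by at least 1. Among the largest negative differences, skr-10 had -3.81 with 1 probe and -0.05 with another, and C10G8.4 had -3.73.

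The median difference was 0.52 for 10 epidermis markers, 0.32 for 11 pharynx markers, 0.17 for 10 intestine markers, 0.15 for 9 body wall muscle markers and -0.24 for 7 neuron markers. Of the epidermis markers, the tissue that makes the furrow collagens, 9 of 10 were above 0 and 1 by at least 1. This was nhr-74 with 2.15, whose log ratio ran between -1.19 and 7.32 in the high arrays and between -8.02 and 1.85 in the low arrays. Without WN64/WN63, the array with 7.32, it differed by 1.42, with the low array at -8.02 still included. The medians of the high and the low arrays differed by 0.19 for nhr-74. At most 1 marker of each other list was higher, and no marker of these lists was lower, by at least 1. Cytosolic ribosomal proteins (68 genes, median 0.19) and the respiratory chain and ATP synthase (25 genes, median -0.08) stayed close to 0. The part of germline content, tissue content or strain genotype in the differences of the other lists was not tested.

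**Figure D3:**
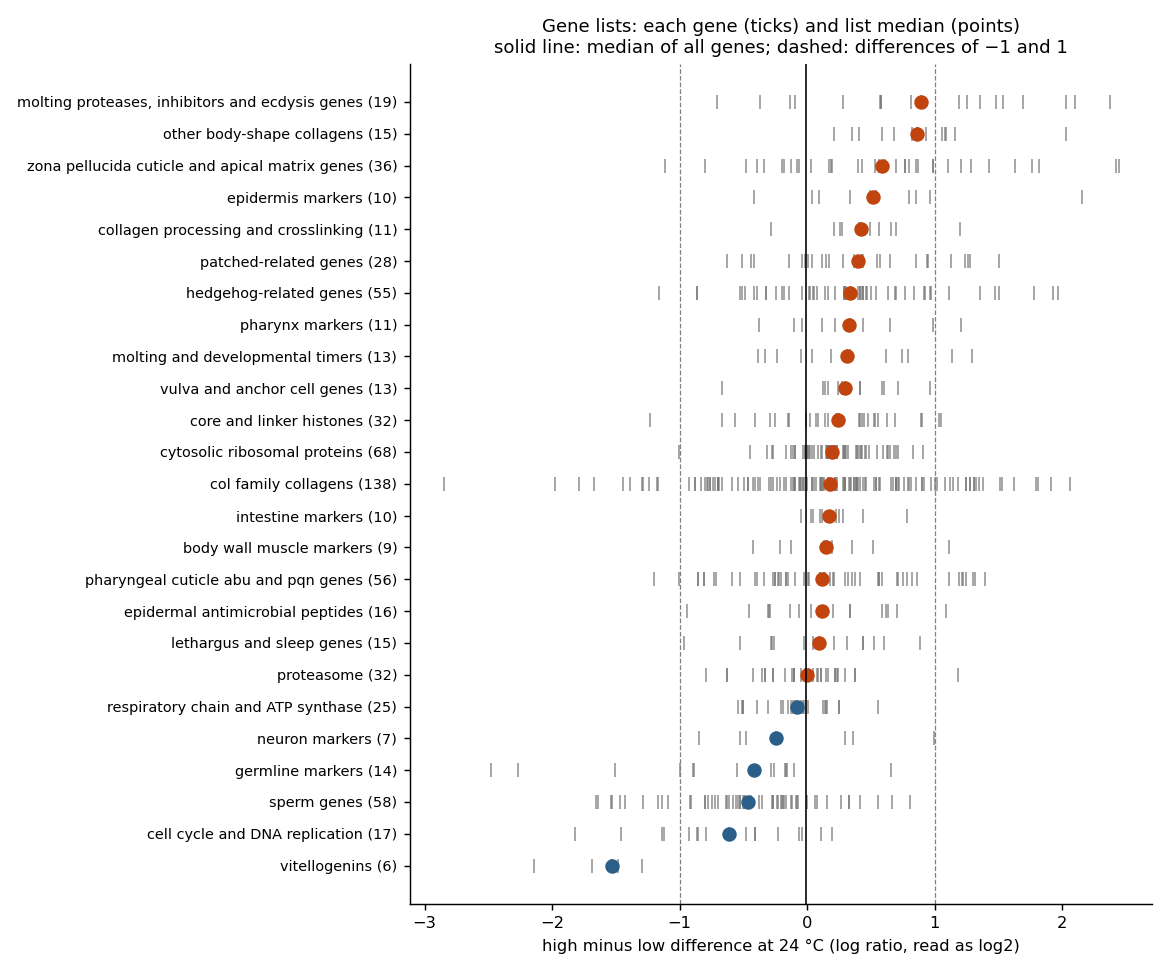
Difference between the mean log ratios of the high and the low arrays (horizontal axis, read as log2) for each measured gene of 25 lists (ticks, number of genes in parentheses), with the list median (point), ordered by median. Molting genes and other body-shape collagens lie highest, with medians of 0.89 and 0.86, and vitellogenins lowest, with a median of -1.53, against -0.01 for all genes (solid line).

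Whether the furrow score belonged to the strain pair was examined at 16 °C, where all 20 pairs were hybridised with the same dyes. The 16 °C score ran between -1.15 and 0.92, with a median of -0.03, in the pairs of the high arrays and between -1.16 and 1.20, with a median of -0.38, in the pairs of the low arrays. The means were -0.01 ± 0.63 and -0.09 ± 0.86 (SD, n = 10 each), and the difference of 0.08 was smaller than the spread between arrays (exact two-sided permutation test, p = 0.809). Single pairs changed sides. WN65/WN30, the lowest array at 24 °C with -2.87, had 0.59 at 16 °C, and WN80/WN7, a high array with 1.11, had -1.15. Each of the 5 furrow collagens differed by -0.30 to 0.25 between the 2 sets of pairs at 16 °C, with an adjusted p of 0.996 by limma. Of all 23232 probes, 0 passed a limma adjusted p of 0.05 in either direction (0% each). At an unadjusted p under 0.05, 2.01% were higher and 2.26% lower in the pairs of the high arrays. These shares were not split by the sign of each probe's 24 °C difference. In simulated arrays of this size, 5 of 100 probes made to differ by 1 and 51 of 100 made to differ by 2 were found.

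Strains on more than 1 array gave a second view of the score at 24 °C. WN65 had -2.87 as the Cy3 strain of WN65/WN30 and 0.32 as the Cy5 strain of WN14/WN65. WN80 had 1.11 as the Cy3 strain of WN80/WN7 and -0.49 as the Cy5 strain of WN1/WN80. For these strains the sign turned with the dye, although the partner strains differed as well. WN38 kept its sign, with 0.56 as the Cy5 strain of WN58/WN38 and 0.17 as the Cy3 strain of WN38/WN47. No test was made over these few strains.

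**Figure D4:**
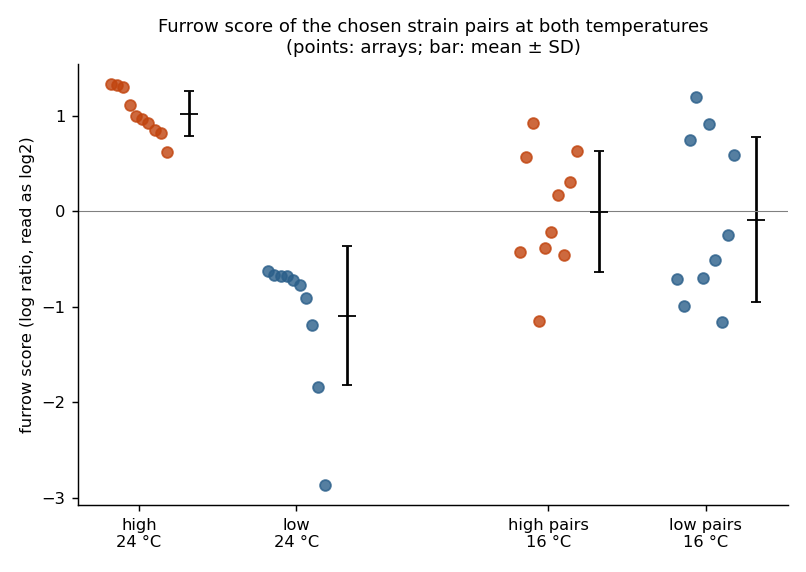
Furrow score (vertical axis, read as log2) of the 10 high and 10 low arrays at 24 °C, which the score chose, and of the same strain pairs at 16 °C, with the mean ± SD. The groups are apart at 24 °C by construction and overlap at 16 °C, with means of -0.01 in the pairs of the high arrays and -0.09 in those of the low arrays.

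Which genes varied with the furrow collagens was tested in the 40 arrays at 16 °C, which the choice did not use. There 149 probes (0.641% of the 23227) rose with the furrow score and 70 (0.301%) fell with it in the limma fit. Unadjusted, 1665 (7.17%) and 1392 (5.99%) had a p under 0.05. The probes with the smallest p belonged to neighbouring lipocalin-related genes. The slope, in log ratio per unit of score, was 0.98 ± 0.12 (SE) for lpr-5 (limma adjusted p = 6.75e-06), 0.97 ± 0.12 for lpr-6 (8.45e-06) and 0.99 ± 0.13 for lpr-4 (9.76e-06). In the annotation of assembly WBcel235 these genes and lpr-3 follow each other on chromosome X with 0 protein-coding genes between them. At 24 °C, lpr-4 was higher in the high arrays by 2.08 and lpr-5 by 1.99. wrt-2 had a slope of 1.00 ± 0.14 (adjusted p = 0.000111) and noah-2 one of 0.90 ± 0.15 (adjusted p = 0.00102).

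Among all 16362 genes, 116 rose with the score at 16 °C and 62 fell. Of the 19 genes of the molting list 5 rose and none fell, and these were sym-1, mlt-11, lpr-3, acn-1 and nas-37. nas-37 is a protease gene of cuticle shedding and acn-1 is required for molting, and both are named here after their values were seen. Of the 36 genes of the zona pellucida list, noah-2, fbn-1, cut-2 and cutl-28 rose, and of the 55 hedgehog-related genes wrt-2, wrt-10 and wrt-1 rose. Of the 13 genes of the timing list, lin-29 rose, with a slope of 0.62 ± 0.15 (limma adjusted p = 0.033), while myrf-1 had 0.47 ± 0.13 (adjusted p = 0.0622). Of the 138 col genes 2 rose, col-128 among them. Of the 11 genes of collagen processing 1 rose, pdi-1, a protein disulfide isomerase gene of collagen assembly. None of the 15 other body-shape collagens, 28 patched-related genes and 56 abu and pqn genes passed. bli-1 had a slope of 1.12 ± 0.32 (limma adjusted p = 0.067). cutl-28, wrt-1, col-128, pdi-1, rps-24 and cox-15 are also named after their values were seen. spl-1 rose among 10 intestine markers, rps-24 among 68 ribosomal proteins and cox-15 among 25 genes of the respiratory chain list. None of 6 vitellogenins, 58 sperm, 14 germline and 17 cell cycle genes passed the test. With so few calls over all genes, the single calls and the lists without a call are no result about those lists. The vitellogenins had a median slope of -1.86 per unit of score, and vit-2 had -2.19 ± 0.62 (adjusted p = 0.0715). In the cell cycle list the median slope at 16 °C was 0.13 and air-2 had 0.04 ± 0.14, where the 24 °C difference was -1.82. Without WN80/WN7, which had -1.15 at 16 °C, 79 probes rose and 22 fell, and fbn-1, cut-2, lin-29, idpp-1, acn-1 and col-128 no longer passed, with slopes of 0.947 to 1.06 times those over all arrays and adjusted p between 0.058 and 0.111. fbn-1, cut-2 and col-128 also failed without WN16/WN34, at -1.16, and without both arrays 39 probes rose and 7 fell. Of the 5 molting genes sym-1 still passed without both arrays, while mlt-11, lpr-3, acn-1 and nas-37 had a limma adjusted p between 0.0573 and 0.132, with slopes of 0.85, 0.63, 0.64 and 0.89 against 0.90, 0.67, 0.71 and 0.90 over all arrays. cutl-28, pdi-1, spl-1 and cox-15 did not pass either.

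The probes related to the score at 16 °C were followed at 24 °C. Of the 149 that rose, 140 were higher in the high arrays and 66 (44.3%) were higher by at least 1, with a median of 0.80. Of the 70 that fell, 61 were lower in the high arrays and 27 (38.6%) were lower by at least 1, with a median of -0.80. Over all probes the shares past 1 are 6.5% and 5.64%, and 51.7% were above 0. In the other direction, 4.37% of the probes that were higher by at least 1 at 24 °C rose with the score at 16 °C, and 2.06% of the lower ones fell. Of all probes, 0.641% rose and 0.301% fell at 16 °C. Of the 11 named genes that did not overlap at 24 °C, idpp-1, noah-2, wrt-2 and lpr-6 passed at 16 °C, while F49E11.2, F15H10.8, uggt-1, pold-2, zyg-11, F57A10.4 and F48C1.5 had an adjusted p between 0.239 and 0.692. Not all the strongest relations were shared. C08E8.4 had a slope of -1.40 ± 0.25 at 16 °C (limma adjusted p = 0.00206) and differed by 0.11 at 24 °C, and ets-10 had -1.08 ± 0.23 (adjusted p = 0.0096) and differed by -0.18. The difference between temperatures was not tested.

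**Figure D5:**
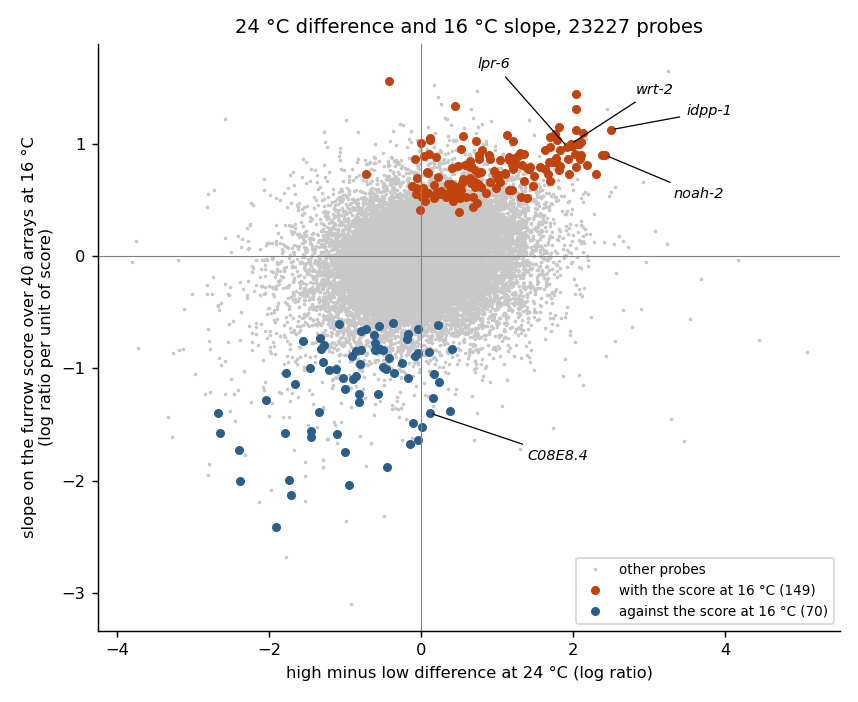
Difference between the high and the low arrays at 24 °C (horizontal axis, log ratio) and slope on the furrow score over the 40 arrays at 16 °C (vertical axis, log ratio per unit of score) for 23227 probes. The 149 probes that rose with the score at 16 °C lie mostly to the right, 140 of them above 0, and the 70 that fell lie mostly to the left, 61 of them below 0.

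In the 20 arrays of 24 °C between the high and the low ones, a range set by the choice of arrays, the score ran only between -0.55 and 0.60, and 0 probes passed the limma test of the slope (0% in each direction), with 458 (1.97%) of positive and 451 (1.94%) of negative slope at an unadjusted p under 0.05. In simulated arrays of this size 0 of 100 probes with a slope of 1 and 17 of 100 with a slope of 2 were found. Of the 149 probes that rose with the score at 16 °C, 134 had a positive slope in these arrays, and of the 70 that fell, 55 had a negative one. Over all probes 49.6% had a positive slope. The score here is the one that sorted the arrays and probes of an array share its hybridisation, so that these signs are descriptions. mlt-11 had 1.11 ± 0.35 (SE), lpr-5 had 1.07 ± 0.33, idpp-1 had 1.75 ± 0.47 and bli-1 had 1.94 ± 0.75 (limma adjusted p = 0.9997 each). Other genes that were higher in the high arrays had slopes near or below 0. These were 0.01 ± 0.38 for ptr-10, -0.10 ± 0.47 for F49E11.2, -0.71 ± 0.72 for col-9 and -1.51 ± 1.61 for col-183. All 6 vitellogenins had a positive slope, with a median of 0.96, the opposite of their sign between the high and the low arrays. The errors were large, with slopes of 0.08 ± 1.27 (SE) for vit-1, 0.54 ± 0.99 for vit-2, 1.35 ± 1.33 for vit-3 and 1.65 ± 1.15 for vit-4. With such errors, and probes that may read each other, the signs do not establish a reversal. The heat shock genes hsp-16.41 and hsp-70 were among the probes with the smallest p, with slopes of 3.30 and 2.75 per unit of score (adjusted p = 1.00 each), and differed between the high and the low arrays by 1.12 and 0.20.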

How the data were processed

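For each of the 80 arrays of 60-mer probes the authors deposited normalized ratios on a log scale, taken here as log2 since limma is the tool listed in the submitters' processing notes. Base, numerator dye and normalization steps are not given in the sources used here. All 24 °C arrays had the same median absolute ratio, 0.66, and all 16 °C arrays had 0.59, so that arrays of a temperature were on a common scale. Signal over background cannot be read from ratios, and precision rests on how many arrays there are. No slide or scan batch was given.

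The platform table names 1 gene for 17447 of 23232 probes, of which 17358 were joined by gene identifier to RefSeq WBcel235. The furrow score is the mean over 5 probes. A probe was called at an absolute difference of 1 between the means of the 10 high and the 10 low arrays. Tests outside the contrast of high and low arrays were a two-sided exact permutation test, and limma (lmFit, eBayes, Benjamini-Hochberg, 0.05) for the 16 °C arrays of the chosen pairs and for slopes on the score at 16 °C and in the 20 middle arrays. An array is a pair of strains, and p-values measure the spread between arrays.

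The rule for named genes took the furrow genes, up to 10 probes each way without overlap (topped up by size), the 4 largest differences of each list, all timing genes, and the 5 smallest p each way of each limma test. Some of these appear only in counts, and exceptions are noted. Where probes shared a gene, the one with the largest SD over all arrays stood for it. The members and the lists were chosen with earlier results of these data known.

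Scripts were tested on simulated data with independent noise. At 16 °C, 53 of 100 probes with a slope of 1 and 97 of 100 with a slope of 2 were found, with 5 false calls among 23227. The alternatives were other scores and group sizes, scaling of arrays, arrays left out, thresholds of 2 and of 0.01, named probes only, and Spearman ranks. Python 3.11.15, numpy 2.4.6, scipy 1.17.1, pandas 2.3.3, matplotlib 3.10.9, R 4.3.3 and limma 3.58.1 were used.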

Additional observations from a re-analysis of the deposited data

Results flagged for a closer look

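Single arrays that stood apart from the rest of the high or of the low arrays by Dixon's criterion were sought for the furrow score and for the genes named in the report. Chance meets this criterion in about 1 of 20 groups, and 170 groups were looked at, of which 12 met it. Among the high arrays, WN64/WN63 had the highest yolk protein ratios, with 5.50 for vit-3 (next 0.99), 4.34 for vit-4 (next 1.29), 3.58 for vit-5 (next 0.81) and 3.81 for vit-6 (next 0.70). The same array had the highest ratio of nhr-74, 7.32 (next 2.15). WN75/WN66 stood above the other high arrays with 9.66 for wdr-5.2 (next 2.55) and 2.68 for phy-2 (next 1.53). WN54/WN6 stood below them with 0.024 for acn-1 (next 0.72). Among the low arrays, WN65/WN30 stood below the others with -3.26 for dpy-2 (next -1.52) and -2.84 for wrt-2 (next -1.44). WN15/WN35 stood above the other low arrays with 1.74 for pold-2 (next 0.69), and WN27/WN56 with 3.38 for ets-10 (next 1.19).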

How the results depend on the processing

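With 5 arrays in each group, 3092 probes were higher and 2922 lower by at least 1, and 479 and 469 did not overlap. With 20 arrays in each group the counts were 434 and 448, with 0 and 0 probes without overlap. Arrays centred and scaled by their own spread gave 3616 and 3370, in other units, and 16 higher probes without overlap. A difference of 2 left 87 and 124 probes, and named probes alone gave 968 higher and 1096 lower ones. Lower probes also outnumbered higher ones without the arrays of recurring strains (1242 higher, 1476 lower), with the score without dpy-3 (1344 and 1504) or dpy-9 (1508 and 1541), and by group medians (1331 and 1355). Probes without overlap numbered 4 higher and 0 lower without the arrays of recurring strains, 15 higher with the score without dpy-2 and 16 without dpy-9, and 13 lower without the array of largest SD in each group. The 16 °C difference of the pairs turned to -0.011 with 5 arrays, -0.107 with 20, and to -0.082, -0.062 and -0.0090 with the score without dpy-3, dpy-7 and dpy-9, with exact permutation or permutation p between 0.515 and 0.977 over all alternatives. Of the 149 rising and 70 falling probes at 16 °C, the counts were 94 and 42 without recurring strains, 39 and 7 without the 2 arrays farthest from the median score, 79 and 22 without WN80/WN7 alone, 44 and 4 at an adjusted p of 0.01, 286 rising by Spearman ranks, and 46 falling with the score without dpy-3. Of the 219 probes, 46 were called again without the 2 farthest arrays and 100 without WN80/WN7. idpp-1, lpr-3, mlt-11, fbn-1, cut-2, lin-29, spl-1, ets-10, acn-1, nas-37, col-128, pdi-1, cutl-28 and cox-15 no longer passed without the 2 farthest arrays, with slopes of 0.890 to 1.11 times those over all arrays. idpp-1, cut-2, lin-29, acn-1 and cox-15 did not pass with the score without dpy-3. The causes were not tested. The middle arrays and the 16 °C pairs gave 0 calls in every alternative run. Removing WN65/WN30 or WN64/WN63 (chosen after seeing the data, as were group medians, WN80/WN7 or WN16/WN34 left out alone, and dpy-3 left out of the score in the slope fits) kept each 24 °C count within 1.5 times. In 1092 values over 78 named genes, no 24 °C difference with a size of at least 1 reversed. Smaller differences were not counted as reversals, and some changed sign. By group medians nhr-25 went from 0.31 to -0.17, hbl-1 from 0.19 to -0.37, elt-3 from 0.03 to -0.16 and blmp-1 from -0.24 to 0.08. No 16 °C slope reversed in 192 values over 24 genes, and 35 of these values no longer passed. The 24 genes had passed in these same arrays and the settings share most arrays, so that a reversal was unlikely. Both counts of values include gene means, which repeat the main result.

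dpy-10 could not be left out, having no probe of that name here. Each furrow gene had 1 probe, so that gene means gave the same score. WN3/WN22 was not among the chosen pairs, so that their 16 °C comparison could not be rerun without it, and the slope fits were not run without it. No paired analysis was possible because the high and the low arrays carry different strain pairs and share no replicate number. Ratios give no signal over background, and dim probes could not be set aside.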
